A study of Mus musculus with 9 samples.

Results

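The Toll-like receptor genes were examined in the livers of 9 wild-type C57BL/6 mice collected 48 hours after treatment. The 10 genes of the list, Tlr1 to Tlr9 and Tlr13, were found by name in the deposited table of 24341 genes, and all 10 were present. The mRNA of bulk liver was sequenced from 3 mice given FGK45, an agonist antibody to CD40 (anti-CD40, mice 2, 5, and 9), and from 6 control mice for which the labels name PBS (mice 3, 4, 7, 8, 11, and 12). All mice carried the wild-type genotype, and the labels give no age or sex. As the default for the animal work, the methods give sex-matched mice of 8 to 12 weeks. The methods state that, across the animal work, mice given anti-CD40 that failed to mount the usual systemic response were excluded from analysis.

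Toll-like receptors are membrane proteins that recognize molecules of microbes and of damaged cells. Tlr1, Tlr2, Tlr4, Tlr5, and Tlr6 sit at the cell surface, where Tlr2 pairs with Tlr1 or Tlr6 to bind lipoproteins, Tlr4 binds lipopolysaccharide, and Tlr5 binds flagellin. Tlr3, Tlr7, Tlr8, Tlr9, and Tlr13 act in endosomes on nucleic acids, with double-stranded RNA as the ligand of Tlr3, single-stranded RNA as that of Tlr7, unmethylated CpG DNA as that of Tlr9, and bacterial ribosomal RNA as that of Tlr13. In the liver they are carried by Kupffer cells, other leukocytes, and endothelial cells, and some by hepatocytes.

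The libraries came from the QuantSeq 3′ method, in which a transcript gives reads from its 3′ end whatever its length. The deposited unit is FPKM, fragments scaled to transcript length in kilobases and to the total of mapped fragments, with a floor of 0.01. The table gives no read totals, but its low values fall on steps of whole reads. Relative depth read from these steps, scaled to a geometric mean of 1 over the mice, was 0.991 to 1.13 after anti-CD40 and 0.870 to 1.06 in control mice. The summed FPKM of 5 hepatocyte markers was 3839 to 4636 in the anti-CD40 mice, against 11717 to 22084 in the control mice, so the labelled tissue was borne out in every sample. Pancreatic acinar markers summed to 240.3 FPKM in anti-CD40 mouse 5 and to 1.68 or less in the other 8 mice. Erythroid markers summed to 50524 FPKM in control mouse 4 and to 14316 or less in the other mice.

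The positions of the loci in the table are on mm10. Tlr1 (chromosome 5, 64924680 to 64933558) and Tlr6 (chromosome 5, 64953095 to 64960034) are neighbors on the minus strand, 19536 bases apart. Tlr8 (chromosome X, 167242732 to 167263788) and Tlr7 (chromosome X, 167304926 to 167330571) are also neighbors on the minus strand, 41137 bases apart. The others are Tlr2 (chromosome 3, 83836272 to 83841608), Tlr3 (chromosome 8, 45395665 to 45410539), Tlr4 (chromosome 4, 66827811 to 66842796), Tlr5 (chromosome 1, 182954788 to 182976044), Tlr9 (chromosome 9, 106222598 to 106226876), and Tlr13 (chromosome X, 106143275 to 106160493). For 3′ reads the annotated end of the gene matters. In RefSeq (GRCm38.p6), the gene runs past the 3′ end of the deposited locus by 3785 bases for Tlr4, 1546 bases for Tlr7, and 1609 bases for Tlr8, and by 3 bases or fewer for the other 7. GENCODE M21 places the end 87488 bases further for Tlr4 and 1064 bases further for Tlr6. Whether reads in these stretches were left uncounted was not tested. Tlr3 overlaps an antisense gene, Gm45542, and the strand setting of the counting is not given in the sources used here.

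RefSeq promoter windows, from 250 bases before to 50 bases after a start site, were found for 8 of the 10 genes. The windows below belong to the genes that rose and have one, and are shown with the motifs that were searched for. Capitals mark a match on either strand to the interferon gamma activated site GAS (TTCNNNGAA), the interferon-stimulated response element ISRE (GAAA, any 2 bases, GAAA), an NF-κB motif (GGG, any 2 bases, TTTCC), or a motif of PU.1, a factor of myeloid and B cells (GAGGAA).
Tlr1 (chr5:64933509-64933808, minus strand): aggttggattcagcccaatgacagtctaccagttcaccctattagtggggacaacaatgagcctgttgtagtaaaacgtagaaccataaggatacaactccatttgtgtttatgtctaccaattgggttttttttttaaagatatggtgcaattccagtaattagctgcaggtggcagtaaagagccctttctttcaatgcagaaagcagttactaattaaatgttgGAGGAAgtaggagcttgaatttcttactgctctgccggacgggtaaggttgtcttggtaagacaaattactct
Tlr2 (chr3:83841559-83841858, minus strand): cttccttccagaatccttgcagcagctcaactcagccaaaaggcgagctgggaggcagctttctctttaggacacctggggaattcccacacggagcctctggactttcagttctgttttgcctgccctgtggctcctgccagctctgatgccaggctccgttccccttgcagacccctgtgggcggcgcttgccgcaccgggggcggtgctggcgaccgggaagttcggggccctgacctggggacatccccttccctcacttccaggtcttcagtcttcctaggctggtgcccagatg
Tlr6 (chr5:64959999-64960298, minus strand): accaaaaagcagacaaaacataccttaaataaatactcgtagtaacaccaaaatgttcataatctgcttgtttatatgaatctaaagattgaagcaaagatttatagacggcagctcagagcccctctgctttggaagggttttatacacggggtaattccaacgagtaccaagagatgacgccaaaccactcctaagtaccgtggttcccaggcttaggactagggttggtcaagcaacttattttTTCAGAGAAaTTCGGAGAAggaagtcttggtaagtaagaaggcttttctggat
Tlr3 (chr8:45410331-45410630, minus strand): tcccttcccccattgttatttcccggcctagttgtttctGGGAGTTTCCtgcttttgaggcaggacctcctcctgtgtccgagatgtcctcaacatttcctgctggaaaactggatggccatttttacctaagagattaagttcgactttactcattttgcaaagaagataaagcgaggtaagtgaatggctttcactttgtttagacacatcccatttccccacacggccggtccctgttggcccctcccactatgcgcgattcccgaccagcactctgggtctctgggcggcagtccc
Tlr13 (chrX:106143025-106143324, plus strand): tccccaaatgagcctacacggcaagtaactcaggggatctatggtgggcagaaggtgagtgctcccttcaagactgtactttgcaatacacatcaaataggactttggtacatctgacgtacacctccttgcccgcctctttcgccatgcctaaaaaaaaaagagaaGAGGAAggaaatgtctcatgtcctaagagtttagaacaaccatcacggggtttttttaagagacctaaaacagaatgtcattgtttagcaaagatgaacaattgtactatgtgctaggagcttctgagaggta
In the window nearest to the deposited start, 4 of the 8 genes held the PU.1 motif (Tlr1, Tlr8, Tlr9, and Tlr13), against 28.3% of 32851 windows of all genes. The Tlr1 match began 23 bases and the Tlr13 match 83 bases before the start site. Tlr6 held 2 GAS matches at its start site and Tlr8 held 1, against 8.30% of all windows. Tlr3 held the single NF-κB match, against 1.63% of all windows, and 0 of the 8 nearest windows held the ISRE motif, which 3.44% of all windows did. Tlr1 and Tlr6 each have a second RefSeq window, at start sites 859 and 868 bases from the deposited start. That of Tlr6 held 2 ISRE matches and that of Tlr1 held 1 GAS match. The Tlr2 window held no match to the 4 motifs as spelled above, and other forms of these motifs were not searched for. Matches of different motifs did not overlap in the windows shown. Tlr8 and Tlr9 were near the floor in all mice, and the motif matches are a description of these windows alone.

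In the anti-CD40 mice, 6 of the 10 Toll-like receptor genes were higher than in the control mice. These were Tlr1, Tlr2, and Tlr6 of the lipoprotein receptors, and Tlr3, Tlr7, and Tlr13 of the endosomal receptors. Fold changes ran from 1.73 for Tlr3 to 6.93 for Tlr2 on the log2(FPKM + 0.1) scale, which understates the change of low genes. Tlr4 and Tlr5 did not pass the test, and Tlr8 and Tlr9 were not detected beyond single reads. The test was limma with Benjamini-Hochberg adjustment over the 13807 genes whose mean FPKM reached 0.1, and SE below is the standard error of a log2 fold change. Of the 8 Toll-like receptor genes that passed this filter, 6 were called higher and 0 lower, and 0 were lower at an unadjusted p under 0.05 in limma. Over all genes tested, 45.1% were called, 23.5% higher and 21.7% lower. All 8 had a control mean above the filter, so none entered through the anti-CD40 group alone. The groups did not overlap in the same 6 genes. Over all genes tested, groups that did not overlap were found in 42.4%, with anti-CD40 higher in 22.7% and lower in 19.6%. The median log2 fold change of the 8 genes was 1.58, and that of all genes tested was 0.0056.

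**Figure D1:**
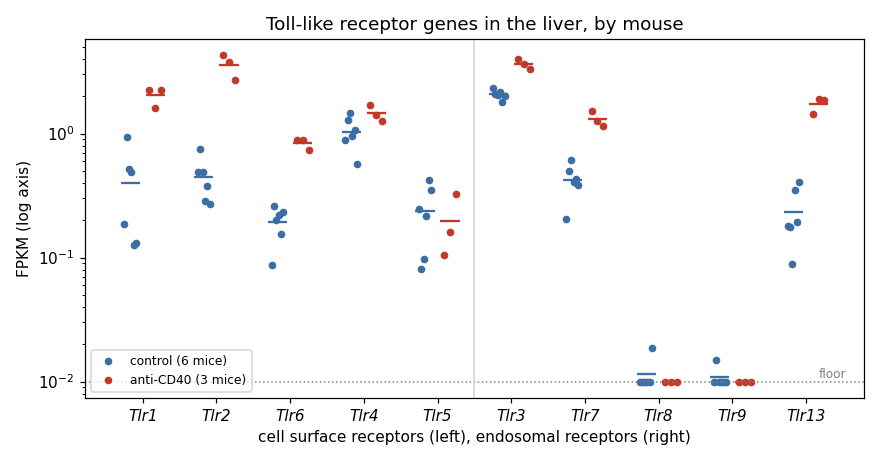
FPKM of the 10 Toll-like receptor genes on a log axis, with 1 point per mouse (control in blue, anti-CD40 in red) and a line at each group mean. The anti-CD40 points lie above all control points for Tlr1, Tlr2, Tlr6, Tlr3, Tlr7, and Tlr13, the points of Tlr4 and Tlr5 overlap, and those of Tlr8 and Tlr9 lie at or near the floor of 0.01.

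Tlr2, the shared subunit of the lipoprotein receptors, had FPKM values of 4.29, 3.76, and 2.72 in anti-CD40 mice 2, 5, and 9. In the control mice its lowest value was 0.272, the median 0.435, and the highest 0.749, in mouse 4. Every anti-CD40 mouse was above every control mouse. The anti-CD40 mean was 3.59 ± 0.798 (SD, n = 3) against a control mean of 0.445 ± 0.177 (SD, n = 6), a log2 fold change of 2.79 (SE 0.27, limma adjusted p = 2.17e-05). The recovered reads behind these values were 252, 208, and 140 in the anti-CD40 mice, against 13 to 41 in the control mice.

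Tlr1, which pairs with Tlr2 to bind triacylated lipoproteins, had FPKM values of 2.26, 1.60, and 2.23 in anti-CD40 mice 2, 5, and 9. The lowest control value was 0.126, the median 0.338, and the highest 0.942, again in mouse 4. The control mice were spread over a wide range and yet stayed below the anti-CD40 mice. The anti-CD40 mean was 2.03 ± 0.371 (SD, n = 3) against a control mean of 0.399 ± 0.319 (SD, n = 6), a log2 fold change of 2.32 (SE 0.47, limma adjusted p = 0.00254). Whole reads could not be recovered for Tlr1. Tlr1 and Tlr6 are close paralogs, and 15.4% of the 50-base words of the Tlr1 transcripts in GENCODE M21 occurred in transcripts of other genes, as did 12.3% of those of Tlr6. In the last 500 bases of the first GENCODE transcript of each, 0 words were shared between the pair. For Tlr6, GENCODE ends 1064 bases past the deposited locus, so these last bases may lie outside the stretch that was counted. The comparison therefore cannot tell whether reads of the pair were mixed, which was not tested.

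Tlr6, which pairs with Tlr2 to bind diacylated lipoproteins, had FPKM values of 0.885, 0.881, and 0.731 in anti-CD40 mice 2, 5, and 9. In the control mice the lowest was 0.0874, the median 0.211, and the highest 0.263. The groups were separate. The log2 fold change was 1.70 (SE 0.23, limma adjusted p = 1.95e-04), with 47, 44, and 34 reads in the anti-CD40 mice, against 4 to 13 in the control mice.

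The balance between Tlr2 and its partners was compared within each mouse, as the difference of log2(FPKM + 0.1), with a 2-sided exact permutation test that takes all 84 ways to split them into 3 and 6. The smallest p of this test is 0.0238. Tlr2 exceeded Tlr6 by 1.97 ± 0.197 (SD, n = 3) in the anti-CD40 mice and by 0.87 ± 0.569 (SD, n = 6) in the control mice, a shift of 1.1 (exact permutation p = 0.0238, or 0.0714 adjusted over the 3 pairs compared). All 3 anti-CD40 values were above all 6 control values. With 1 pair at the smallest p, adjustment over 3 pairs can give no less than 0.0714, so this pair could not pass on its own. The shift was 0.48 for Tlr2 against Tlr1 (exact permutation p = 0.333) and 0.62 for Tlr1 against Tlr6 (exact permutation p = 0.262), with overlapping groups in both. Of the 5 pairs planned, those of Tlr7 with Tlr8 and with Tlr9 were not compared because Tlr8 and Tlr9 were under the filter.

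Tlr4, the receptor for lipopolysaccharide, had FPKM values of 1.71, 1.41, and 1.26 in anti-CD40 mice 2, 5, and 9. The lowest control value was 0.563, the median 1.0, and the highest 1.47, in mouse 7. The anti-CD40 values lay in the upper part of the control range or above it, and the groups overlapped. The log2 fold change was 0.50 (SE 0.25, limma adjusted p = 0.133), with a 95% confidence interval from -0.062 to 1.06. The exact permutation p was 0.119. Tlr4 had 89 to 138 reads in the anti-CD40 mice, against 37 to 111 in the control mice, more than Tlr6 in every mouse.

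Tlr5, the flagellin receptor, had FPKM values of 0.105, 0.160, and 0.327 in anti-CD40 mice 2, 5, and 9. The control values ran from 0.0809 to 0.424 with a median of 0.230. The anti-CD40 values fell inside the control range. The log2 fold change was -0.14 (SE 0.39, limma adjusted p = 0.796), with a 95% confidence interval from -0.99 to 0.72. Tlr5 had 7, 10, and 19 reads in the anti-CD40 mice, and its control reads varied from 5 to 24.

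**Figure D2:**
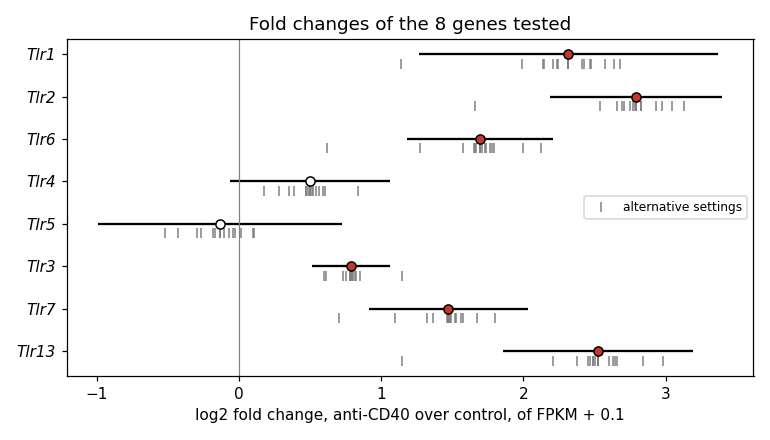
Log2 fold change (anti-CD40 over control, of FPKM + 0.1) of the 8 Toll-like receptor genes tested, with 95% confidence intervals as black lines, genes called higher filled in red, and the values under the alternative settings as grey ticks. The intervals of Tlr4 and Tlr5 cross 0, and those of the other 6 genes do not.

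Among the endosomal receptors, Tlr13, the sensor of bacterial ribosomal RNA, had FPKM values of 1.43, 1.90, and 1.85 in anti-CD40 mice 2, 5, and 9. In the control mice the lowest value was 0.0885, the median 0.186, and the highest 0.407, in mouse 12. Control mouse 4 was not the highest control for this gene. The anti-CD40 mean was 1.73 ± 0.257 (SD, n = 3) against a control mean of 0.233 ± 0.121 (SD, n = 6), a log2 fold change of 2.52 (SE 0.30, limma adjusted p = 8.28e-05). Tlr13 had 121, 151, and 137 reads in the anti-CD40 mice, against 7 to 28 in the control mice.

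Tlr7, the single-stranded RNA receptor, had FPKM values of 1.53, 1.27, and 1.15 in anti-CD40 mice 2, 5, and 9. The lowest control value was 0.204, the median 0.418, and the highest 0.617. The groups did not overlap. The log2 fold change was 1.47 (SE 0.25, limma adjusted p = 8.49e-04), with 80 to 122 reads in the anti-CD40 mice, against 14 to 46 in the control mice.

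Tlr3, the receptor for double-stranded RNA, had FPKM values of 3.96, 3.67, and 3.33 in anti-CD40 mice 2, 5, and 9. The control values were close together, with 1.80 as the lowest, 2.08 as the median, and 2.31 as the highest. The anti-CD40 mean was 3.65 ± 0.313 (SD, n = 3) against a control mean of 2.07 ± 0.173 (SD, n = 6), a log2 fold change of 0.79 (SE 0.12, limma adjusted p = 4.86e-04). Tlr3 had 267 to 362 reads in the anti-CD40 mice, against 140 to 182 in the control mice.

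Tlr8 was at the floor in 8 mice, with 1 read in control mouse 12 and an FPKM there of 0.0188. Tlr9, the CpG DNA receptor, was likewise at the floor except for 1 read in control mouse 4, with an FPKM of 0.0148. Both genes thus had 0 reads in the 3 anti-CD40 mice, a count that allows up to 3 reads in those mice together, by counting error only. A difference between the groups was not detectable at this depth, and no fold change is given. For Tlr8, RefSeq places the 3′ end 1609 bases past the deposited locus, so reads may have been left uncounted, which was not tested. Plasmacytoid dendritic cells and B cells are known for Tlr9, and some markers of both were present in these livers. Pacsin1 of the first list and Pax5 of the second were under the filter. Pacsin1 was at 0.0262 to 0.0458 FPKM in the anti-CD40 mice, against 0.01 to 0.0282 in the control mice. Pax5 was at the floor in all mice except anti-CD40 mouse 2, at 0.0901 FPKM. Siglech of plasmacytoid dendritic cells was at 0.587 to 0.831 FPKM in the anti-CD40 mice, against 0.287 to 0.685 in the control mice, and Ms4a1 of B cells was at 13.2 to 17.4 and 0.150 to 2.14.

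The reads of 9 genes (all but Tlr1) were recovered as the smallest whole numbers that explain the 9 values of a gene to within 0.05 reads. Of the 5215 genes whose mean FPKM lay between 0.1 and 2, 86.6% came out whole in this way. Tlr3, with a mean of 2.60, lay above this range, and Tlr8 and Tlr9 lay below it. The FPKM of 1 read times the length of the first GENCODE transcript in kilobases was 0.0536 to 0.0580 in 8 of the 9 genes. The recovered reads of these 8 are thus on a like scale. It was 0.0783 in Tlr6, whose GENCODE end lies 1064 bases past the deposited locus, and the reason for this value was not tested. Since 3′ libraries do not give more reads to longer transcripts, reads order the genes without a length. The order takes no account of reads past the deposited 3′ ends, which may be missing for Tlr4, Tlr6, and Tlr7. In the control mice the order by median reads was Tlr3 (164.5), Tlr4 (67.5), Tlr7 (27), Tlr2 (22), Tlr13 (14), Tlr5 (12.5), and Tlr6 (9.5). Tlr3 was above Tlr4, and Tlr4 above Tlr7, in 6 of 6 control mice, whereas from Tlr7 down to Tlr6 each gene exceeded the next in 4 of 6 and their ranges overlapped. In the anti-CD40 mice Tlr3 had the most reads in each mouse and Tlr2, at 140 to 252, came next in each. Tlr13 (121 to 151), Tlr4 (89 to 138), and Tlr7 (80 to 122) overlapped. By FPKM, which divides by length, the control means were highest for Tlr3 (2.07) and Tlr4 (1.03) as well, and Tlr1 (0.399) fell near Tlr2 (0.445) and Tlr7 (0.424).

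**Figure D3:**
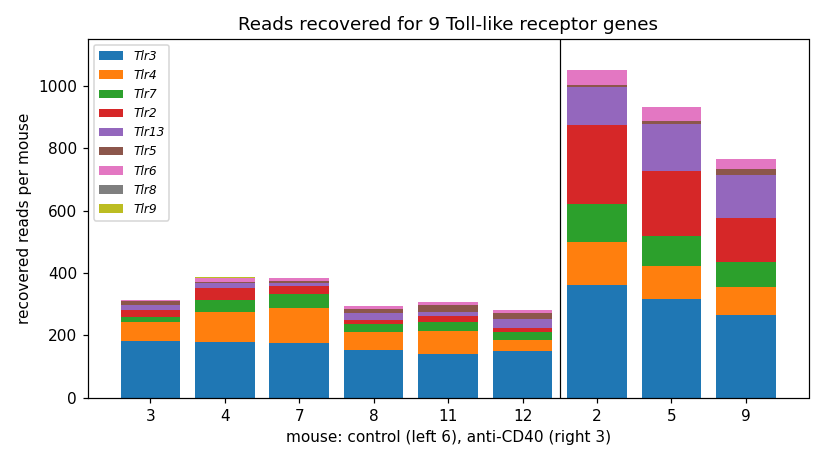
Recovered reads of 9 Toll-like receptor genes stacked by mouse, with control mice on the left and anti-CD40 mice on the right. The 9 genes together had 282 to 386 reads in the control mice and 766 to 1049 in the anti-CD40 mice, and the reads of Tlr2 and Tlr13 take a wider band in the anti-CD40 mice.

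The makeup of these reads differed between the groups. Tlr3 held 45.8% to 58.0% of the reads of the 9 genes in the control mice and 33.9% to 34.9% in the anti-CD40 mice. Tlr2 held 4.44% to 10.6% and then 18.3% to 24.0%, and Tlr13 held 1.83% to 9.93% and then 11.5% to 17.9%. None of these 3 ranges overlapped between the groups, nor did that of Tlr6, at 1.27% to 3.55% and then 4.44% to 4.73%. A share also depends on the reads of the other genes. The reads of Tlr3 itself were higher in the anti-CD40 mice, at 267 to 362 against 140 to 182. The share of Tlr4 was 13.1% to 29.0% in the control mice and 11.5% to 13.2% in the anti-CD40 mice, which overlapped at its edge. These shares are descriptions, and no test of them was made.

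Markers of cell types also differed between the groups, some higher and some lower in the anti-CD40 mice. All 5 monocyte markers and all 5 neutrophil markers in the table were called higher, and all 5 Kupffer cell markers were called lower. The shares over all genes tested were 23.5% higher and 21.7% lower. The summed FPKM of the monocyte markers was 77.4 to 103.5 in the anti-CD40 mice, against 2.41 to 6.16 in the control mice, and that of the neutrophil markers was 61.4 to 71.0 and 0.268 to 5.88. The Kupffer cell markers summed to 37.2 to 48.1 FPKM in the anti-CD40 mice, against 267.9 to 425.2 in the control mice, with Clec4f between the floor and 0.218 in the anti-CD40 mice and at 15.3 or more in the control mice. B cell markers summed to 26.0 to 36.8 and 1.60 to 6.85 FPKM, with 5 of 5 tested called higher. T cell markers (4 of 5 called higher) summed to 6.29 to 8.47 and 1.99 to 3.31 FPKM, and NK cell markers (3 of 3 tested called higher) to 3.68 to 6.29 and 1.11 to 2.04. Plasmacytoid dendritic cell markers (2 of 4 tested called higher) summed to 3.41 to 13.4 and 0.516 to 4.31 FPKM, and conventional dendritic cell markers (3 of 4) to 2.70 to 3.98 and 1.82 to 2.43. Klk1, a kallikrein of the first list, was at 11.8 FPKM in mouse 5, the mouse with pancreatic transcripts, and without it that list summed to 1.58 to 2.47 FPKM after anti-CD40, inside the control range of 0.438 to 3.67. Of the second list, Cd209a was under the filter and lay the other way, at the floor in all 3 anti-CD40 mice and at 0.0414 to 0.264 FPKM in the control mice. Among the markers called higher, Cxcr2, Mmp8, Vcan, Cd79a, Cd8a, and Flt3 had a control mean below 0.1 FPKM and passed the filter through the anti-CD40 group alone, so the counts of those lists include genes that had to differ. The part of these markers in the receptor values was not tested. In bulk liver, fewer cells of a type and less RNA per cell cannot be told apart.

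The remaining lists were read in the same way. Of 5 sinusoidal endothelial markers, 1 was called higher (Lyve1) and 2 lower, and their sum was 52.6 to 55.9 FPKM in the anti-CD40 mice, against 62.8 to 84.3 in the control mice. Of 5 stellate cell markers, 3 were called lower, with sums of 199.4 to 225.7 and 263.6 to 383.9 FPKM. All 5 hepatocyte markers were called lower. Of 4 cholangiocyte markers, 1 was called higher (Sox9), with sums of 52.9 to 69.3 and 6.09 to 12.3 FPKM. In limma, 0 of 5 pancreatic acinar markers and 0 of 4 erythroid markers tested were called, with 2 and 0 at an unadjusted p under 0.05. Anti-CD40 mouse 5, with its pancreatic transcripts, was not the highest anti-CD40 mouse for Tlr1, Tlr2, Tlr6, Tlr3, or Tlr7, but it was for Tlr13. Leaving out mouse 5 or control mouse 4 left 6 genes called higher.

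**Figure D4:**
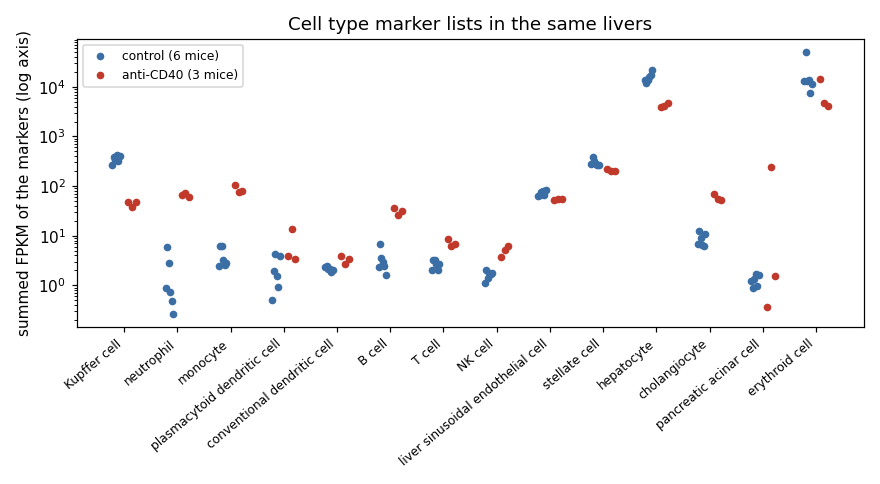
Summed FPKM of the markers of 14 cell types on a log axis, with 1 point per mouse (control in blue, anti-CD40 in red). Monocyte, neutrophil, and B cell markers are higher in all anti-CD40 mice, Kupffer cell and hepatocyte markers are lower, and 1 anti-CD40 mouse stands apart in pancreatic acinar markers.

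The receptors act through co-receptors, adaptors, kinases, and transcription factors, and a list of 65 other genes of the pathway was read from the same fit. Of the 62 genes that passed the filter, 26 were called higher and 5 lower, against 23.5% and 21.7% of all genes tested. In percent, 41.9% of the list was higher. The counts by subgroup below are to be set against the same 23.5% and 21.7%. The median log2 fold change was 0.40. One of the 62 genes, Tnip3, passed the filter through the anti-CD40 group alone. Rnaset2a was at the floor in all 9 mice, and Sarm1 and Il1rl1 were under the filter.

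Of the 6 co-receptors, 3 were called higher. Cd14, which hands lipopolysaccharide to Tlr4, had FPKM values of 45.2, 57.0, and 41.9 in anti-CD40 mice 2, 5, and 9 and 1.02 to 2.1 in the control mice, a log2 fold change of 4.94 (SE 0.20, limma adjusted p = 1.45e-07). Lbp, the lipopolysaccharide-binding protein of plasma, was at 200.6 to 256.0 and 48.2 to 115.0 FPKM, a log2 fold change of 1.68 (SE 0.24, limma adjusted p = 2.56e-04). Ly96 encodes MD-2, the partner of Tlr4 on the cell surface, and it was at 6.47 to 8.02 FPKM in the anti-CD40 mice, inside the control range of 4.96 to 9.24 (limma adjusted p = 0.807). Within the lipopolysaccharide receptor complex, Cd14 and Lbp thus passed the test and Tlr4 and Ly96 did not. The 95% confidence interval of Tlr4 ran up to 1.06 on the log2 scale. RefSeq places its 3′ end 3785 bases past the deposited locus, so reads may have been left uncounted, which was not tested.

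Of 12 genes for folding, trafficking, and processing of the receptors, 5 were called higher and 0 lower by limma (7 and 1 at an unadjusted p under 0.05). Unc93b1, the chaperone that carries the endosomal receptors out of the endoplasmic reticulum, was at 11.6 to 14.5 FPKM in the anti-CD40 mice, against 8.44 to 11.3 in the control mice, a log2 fold change of 0.39 (SE 0.12, limma adjusted p = 0.0250). Its call was lost without anti-CD40 mouse 2 (adjusted p = 0.0870) or 9 (adjusted p = 0.117). Ctss, a cathepsin of endosomes, was at 139.5 to 181.1 and 41.4 to 69.6 FPKM, a log2 fold change of 1.52 (limma adjusted p = 4.03e-05). Of the 4 nucleic acid processing genes tested, 1 (25%) was called higher, a share near the 23.5% of all genes tested. It was Pld4, an exonuclease of endosomes, with a log2 fold change of 1.16 (limma adjusted p = 0.00190).

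Of the 5 adaptors tested, 2 were called higher and 0 lower by limma, as at an unadjusted p under 0.05. Myd88, the adaptor of all these receptors except Tlr3, was at 14.5 to 16.3 FPKM in the anti-CD40 mice, against 6.47 to 10.8 in the control mice, a log2 fold change of 0.84 (SE 0.15, limma adjusted p = 0.00118). Ticam2, which bridges Tlr4 to Ticam1, had a log2 fold change of 1.91 (limma adjusted p = 2.43e-05), from 0.240 to 0.443 FPKM in the control mice to 1.26 to 1.67. Ticam1 (TRIF), the adaptor of Tlr3, was at 4.97 to 5.88 FPKM, inside the control range of 2.57 to 7.16 (limma adjusted p = 0.431).

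Of 17 kinases and ubiquitin ligases, 4 (23.5%) were called higher and 3 (17.6%) lower, shares near those of all genes tested. Ikbke, a kinase that acts on interferon regulatory factors, had a log2 fold change of 1.70 (limma adjusted p = 6.10e-05), and Chuk, which encodes IKKα, fell by 0.87 on the log2 scale (limma adjusted p = 0.00462). Of 5 transcription factors, 3 were called higher and 1 lower. Irf7, a factor that drives type I interferon genes, was at 40.9 to 63.2 FPKM in the anti-CD40 mice, against 7.09 to 18.3 in the control mice, a log2 fold change of 2.12 (limma adjusted p = 8.90e-05). Irf3, its relative, was at 3.07 to 4.33 and 6.26 to 9.99 FPKM and fell by 1.02 on the log2 scale (limma adjusted p = 7.30e-04).

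Of the 13 inhibitors tested, 8 were called higher, Tnip3 among them, and 1 lower. Irak3, a kinase-like protein that holds back the Myd88 pathway, was at 6.35, 7.08, and 6.29 FPKM in anti-CD40 mice 2, 5, and 9 and 0.401 to 1.26 in the control mice, a log2 fold change of 3.18 (SE 0.28, limma adjusted p = 1.24e-05). Sigirr, another inhibitor of the list, was at 3.06 to 3.55 and 4.32 to 5.13 FPKM and fell by 0.48 on the log2 scale (limma adjusted p = 0.00631). The calls of Chuk (adjusted p = 0.0762) and Sigirr (adjusted p = 0.388) were lost on rescaling the mice without the acute-phase genes Saa1, Saa2, and Saa3, a setting that moved the median of all genes by 0.34 on the log2 scale.

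**Figure D5:**
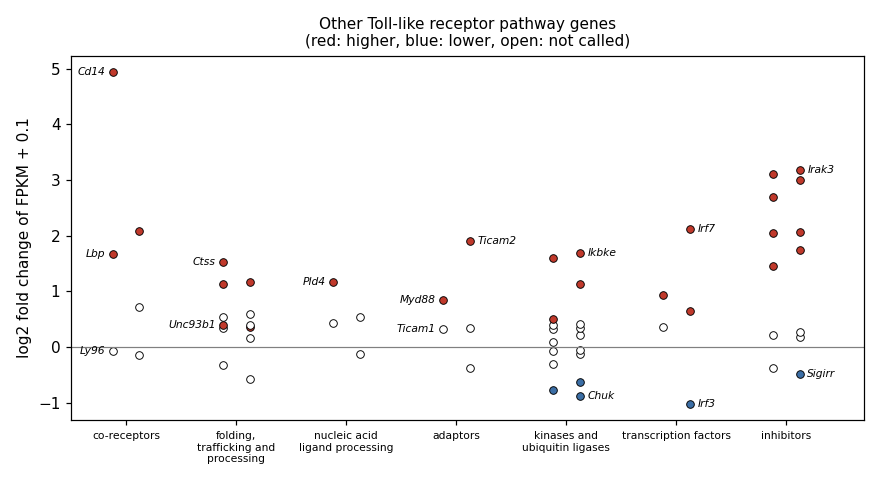
Log2 fold change (of FPKM + 0.1) of the 62 other pathway genes tested, 1 point per gene, by subgroup, with genes called higher in red, lower in blue, and not called open. Cd14 at 4.94 is the highest point, and Irf3 at -1.02 is the lowest.

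For each receptor tested, the genes with the most similar profile over the 9 mice were taken by Pearson correlation of log2(FPKM + 0.1) among the 13807 genes. The profile of Tlr2 was most like those of Apol10b (r = 0.995) and Actr3 (r = 0.993), that of Tlr6 like Spi1 (r = 0.995) and Ms4a4c (r = 0.994), and that of Tlr13 like Rras2 (r = 0.997) and Col4a2 (r = 0.989). The nearest profiles were Rgs10 (r = 0.986) and Samd3 (r = 0.986) for Tlr1, S1pr2 (r = 0.994) and Dcaf15 (r = 0.993) for Tlr3, and Hmgn2 (r = 0.993) and Lrrc75a (r = 0.989) for Tlr7. For the receptors that were not called, they were Spire1 (r = 0.971) and Sike1 (r = 0.955) for Tlr4, and Arhgef18 (r = 0.967) and Abcc3 (r = 0.961) for Tlr5. These are descriptions over 9 mice that share a group difference, and no test was made.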

How the data were processed

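The authors prepared QuantSeq 3′ libraries, placed the reads on mm10 with STAR, and made FPKM values with Cufflinks and CuffDiff, per the methods and the submitters' processing notes. The deposited FPKM have a floor of 0.01 and a mark for failed estimates. The annotation and the filter on the table are not given in the sources used here.

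The 15 genes with a failed estimate were left out, leaving 24326. The values were not scaled further. Of these genes, 13807 had a mean of 0.1 FPKM or more and entered limma (version 3.58.1, R 4.3.3) as log2(FPKM + 0.1). The design held treatment alone, eBayes was run with its trend option, tests were 2-sided, and a gene was called at a Benjamini-Hochberg adjusted p under 0.05. Python 3.11.15 with pandas 2.3.3 did the remaining steps. Locus starts, which the table counts from 0, were raised by 1. Scripts were tested on simulated data. A count test was not used, because reads could be recovered for low genes alone. Absolute depth is unknown, and the limit of 3 reads for a count of 0 covers counting error only.

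All 10 receptors were named, with Tlr11 and Tlr12. Of the pathway list, Cd14, Ly96, Lbp, Unc93b1, Myd88, Ticam1, and Irak3 were always named, and in each subgroup the largest called rise and fall. Tnip3, Rnaset2a, Sarm1, Il1rl1, and the single markers were named after their values were seen. The members and lists were chosen from general knowledge with earlier results of these data known. The limma p-values set the difference between the groups against the spread of mice within them. The exact permutation p-values set it against all splits of these 9 mice. Alternatives were pseudocounts of 1 and 0.01, a stricter filter (1 FPKM) or none, quantile normalization, scaling by median ratios, rescaling without Saa1, Saa2, and Saa3, eBayes without the trend or robust, array weights, and each mouse left out. Protein sequences were not used here.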

Additional observations from a re-analysis of the deposited data

Results flagged for a closer look

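Dixon's criterion for a control mouse far from the other 5 was applied to 15 results, and 3 passed it. Chance flags about 1 in 20 groups. The measure is the distance from the extreme mouse to its neighbor over the full range. For Tlr8 and Tlr9 it was 1, because a single read set control mouse 12 (FPKM of 0.0188) and control mouse 4 (FPKM of 0.0148) apart from mice at the floor. For Tlr11 it was 0.685, with an FPKM of 0.210 in control mouse 4. No explanation of these values was tested.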

How the results depend on the processing

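The number of receptors called higher was 6 or 7 in all alternatives except a mean FPKM of at least 1, which left 3 receptors to test and 2 called higher, by its own construction. It was 6 with each mouse left out, and 0 were called lower in all 19 alternatives. Tlr4 passed the threshold on rescaling without Saa1, Saa2, and Saa3 (log2 fold change 0.84, adjusted p = 0.0233), a setting that raised the median of all genes by 0.34. With it, 44 pathway genes were called higher and 2 lower, and with array weights 9 were called lower, and the cause was not tested. Without each mouse in turn, 22 to 30 pathway genes were called higher and 4 to 7 lower. The shares of all genes called under these alternatives are not given here. These counts therefore cannot be set against a share, and they describe the list alone. The sign of 3 genes that were not called turned. Tlr5 went to 0.11 with the Saa genes left out, and ranged from -0.43 to 0.097 with each mouse left out (0.097 without anti-CD40 mouse 2, 0.014 without control mouse 11). Tlr12 went to 0.32 and ranged from -0.19 to 0.067 (0.067 without anti-CD40 mouse 2, 0.046 without control mouse 8). Ly96 went to 0.30 and ranged from -0.18 to 0.0020, the latter without anti-CD40 mouse 9. This check covered 24 genes: the receptors tested, Tlr12, and the pathway genes named by the fixed rule. For these, 437 of 450 values under alternatives kept direction and side of the threshold. Tnip3 and the cell type markers were not among them. With a pseudocount of 1, the log2 fold change was 1.66 for Tlr2, 1.15 for Tlr13, 1.14 for Tlr1, 0.70 for Tlr7, 0.62 for Tlr6, and 0.60 for Tlr3. The shift between Tlr2 and Tlr6 was 0.92 to 1.25 over its alternatives (adjusted exact permutation p from 0.0714 to 0.286). No paired analysis was possible because the groups share no mouse number. Depth limits what can be said of Tlr8 and Tlr9, which had single reads. For Tlr8 the deposited locus is a further limit, since RefSeq runs 1609 bases past its 3′ end.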

Other observations

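The table also holds the receptor genes Tlr11 and Tlr12, which act in endosomes of the mouse on profilin of protozoa. Tlr12 (chromosome 4, 128615446 to 128618619) had FPKM values of 5.77, 6.46, and 8.27 in anti-CD40 mice 2, 5, and 9. In the control mice the lowest value was 4.29, in mouse 4, the median 7.28, and the highest 9.61. The groups overlapped, and the log2 fold change was -0.045 (SE 0.22, limma adjusted p = 0.884, 95% confidence interval from -0.54 to 0.45). Tlr12 had 380 to 477 reads in the anti-CD40 mice, against 263 to 487 in the control mice. These were more reads than those of Tlr3 in every mouse. The mean FPKM of Tlr12, 7.05, lay above the range in which the recovery of reads was checked, as did that of Tlr3.

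Tlr11 (chromosome 14, 50357914 to 50363663) was under the filter, with 0 to 6 reads in the anti-CD40 mice, against 1 to 13 in the control mice. Its exact permutation p was 0.714.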
